A study of Mus musculus with 6 samples.

Results

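The genes of the cytosolic ribosomal proteins were followed in laser-dissected colon tumors of 2 mouse genotypes. Probe sets were taken by gene symbol, as Rpl or Rps followed by a number, or by p and a number as in Rplp0, leaving out the Rps6k kinases and symbols ending in -ps, which mark pseudogenes. The rule found 453 probe sets of 35556 on the array, and 78 ribosomal protein genes. Of the sets, 325 belonged to 51 genes of the large (60S) subunit and 126 to 27 genes of the small (40S) subunit. The other 2 sets carried Rps19bp1 and Rps23rg1, whose products are not ribosomal proteins.

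Tumors of 3 double knockout mice (CDX2P-G19Cre;Apcflox/flox;Tgfbr2flox/flox) were compared with tumors of 3 Apc knockout mice (CDX2P-G19Cre;Apcflox/flox), so that Apc deletion was shared and only Tgfbr2 deletion differed by design. All mice were 3 weeks old, and each tumor came from a separate mouse on an array of its own. The strain given is C57BL/6J, which the methods state for the Tgfbr2 flox mice. These were crossed with Apc flox and CDX2P9.5-G19Cre mice, for which the methods state no strain. A fragment of the human CDX2 promoter drives the Cre, which becomes active only in scattered epithelial cells, mainly of the colon, and by design leaves the stroma unrecombined. The study sought genes whose expression changes with Tgfbr2 inactivation in tumors that already lack Apc, and the same comparison is described here for the translation machinery.

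A ribosome joins 1 copy of most of these proteins to the ribosomal RNAs, and cells make the proteins in balanced amounts. Messenger RNAs of ribosomal proteins begin with a C followed by a run of pyrimidines, the 5′ terminal oligopyrimidine (TOP) tract, through which TOR signaling sets their translation. Their control is thus partly translational, which an RNA array does not measure. Many of these genes carry small nucleolar RNAs (snoRNAs), guides of ribosomal RNA modification, inside their introns, and many have processed pseudogene copies in the genome. Myc, a target of the Wnt pathway that Apc loss switches on, is known to raise transcription of the genes of ribosome production.

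The start regions of 7 member genes are shown for the pyrimidine run, which 6 of the 7 hold and Rps4x does not. All but Rpl27a are described below. Of genes described below but not shown, Rpl13 and Rps3 have no run in the same window, while Rpl11, Rps27 and Rpl14 have one. The lines thus do not give the share of starts with a run, which follows after them. Each line gives 10 bases before and 20 bases from the annotated start onward, 5′ to 3′ on the strand of the gene, from RefSeq on build GRCm38.p6, with a C followed by at least 5 bases that are each C or T in capitals. The places are chr7:45128726-45128755 (minus strand) for Rpl13a, chr10:23787190-23787219 (minus) for Rps12, chr7:109519185-109519214 (plus) for Rpl27a, chr4:86857348-86857377 (minus) for Rps6, chr7:141447641-141447670 (plus) for Rplp2, chr13:90923112-90923141 (plus) for Rps23 and chrX:102189372-102189401 (minus) for Rps4x.
Rpl13a: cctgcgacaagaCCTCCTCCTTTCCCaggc
Rps12: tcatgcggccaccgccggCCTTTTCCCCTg
Rpl27a: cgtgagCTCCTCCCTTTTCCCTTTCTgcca
Rps6: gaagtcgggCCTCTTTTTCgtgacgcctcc
Rplp2: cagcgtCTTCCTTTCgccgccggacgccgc
Rps23: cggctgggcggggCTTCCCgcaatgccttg
Rps4x: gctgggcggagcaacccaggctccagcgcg

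The table held a start for 63 of the 78 genes, with 75 starts in all, and Rpl21 was not among them. Such a run stood in this window at 38 of the 75 starts (50.7%), against 22.0% of all 32851 starts in the table. It was found at 46.8% of 47 large subunit starts and at 57.1% of 28 small subunit starts. Over the full 300 bases and both strands, the letters CCGGAAGT, as ETS family factors bind them, were in 14.7% of the member starts and 3.89% of all starts. The letters AAGATGGC, as the factor YY1 binds them, were in 10.7% of the member starts and 2.75% of all starts. The letters TATAAA of the TATA box were in 10.7% and 13.6%. A match is a description of the letters and not a site of binding.

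The values were signals on the log2 scale, where a difference of 1 is a doubling. Array medians lay between 7.68 and 7.80 and array pairs correlated at 0.904 to 0.982, and each other tumor correlated least with double knockout tumor 2. Tgfbr2 read 10.98, 10.35 and 10.47 in the double knockout tumors and 11.35, 11.37 and 11.09 in the Apc knockout tumors, and Apc, deleted in both, 10.16 to 10.84. Double knockout tumor 2 also stood apart in the markers fixed for other cells of the colon. Its median deviation from the mean of the 6 tumors was 1.56 for 10 smooth muscle markers, 1.28 for 15 markers of differentiated colonocytes and -2.10 for 15 Wnt target and crypt base genes, against -0.76 to -0.00, -1.01 to 0.28 and 0.18 to 0.66 in the other 5. Median levels of these lists ran from 7.55 to 10.72, 8.83 to 12.11 and 9.06 to 11.40 in the double knockout and from 7.91 to 8.58, 8.84 to 10.38 and 11.66 to 11.72 in the Apc knockout tumors. Of the markers 0 passed adjustment. At an unadjusted limma p under 0.05, 2 Wnt target or crypt base genes and 2 leukocyte genes were lower. In the other marker lists 0 were lower, and 0 were higher in any. The leukocyte genes were Itgam (-0.58) and S100a9 (-1.84, or -2.50 without double knockout tumor 2). Of the 10 tested leukocyte markers, however, 6 were positive and 4 negative, with a median of 0.12. Of the 15 Wnt target and crypt base genes 14 were negative, with a median difference of -1.04. Without double knockout tumor 2, 13 were negative and the median was -0.41. The smooth muscle and colonocyte lists had medians of 0.58 and 0.45, or -0.10 and -0.02 without that tumor. The part of cell content in the results was not tested. For some results that rest on double knockout tumor 2, values without it are given too.

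Most ribosomal protein sets were bright on the array and differed little between the 6 tumors, where brightness depends on the probes as well as on the RNA. The median signal of the members was 12.80, with quartiles of 12.35 and 13.10, and 414 of the 453 sets (91.4%) lay above the 95th percentile of all sets, at 11.59. The brightest was Rplp1, a protein of the stalk that recruits elongation factors, at a mean of 13.81, while the highest signal on any array was 14.68. Mean signals of 2 members were below the limit for testing of 5.88, and these were Rpl39l (4.09 to 4.60) and Rpl3l (5.68 to 5.92), paralogs known from testis and from muscle. The other 451 were tested, 323 of the large and 126 of the small subunit.

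The spread between tumors of 1 genotype was small. The median residual SD was 0.07 for the members and 0.19 for all 19506 sets tested, and 437 members lay below the latter. Other tested sets above the 95th percentile of signal, 863 in number, had a median residual SD of 0.16. The median range from the lowest to the highest of the 6 tumors was 0.20 for members, 0.45 for those bright sets and 0.54 for all sets tested. Bright sets lie nearer to the upper end of the array's scale, where differences can be compressed, and the part of this in the spread was not tested.

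**Figure D1:**
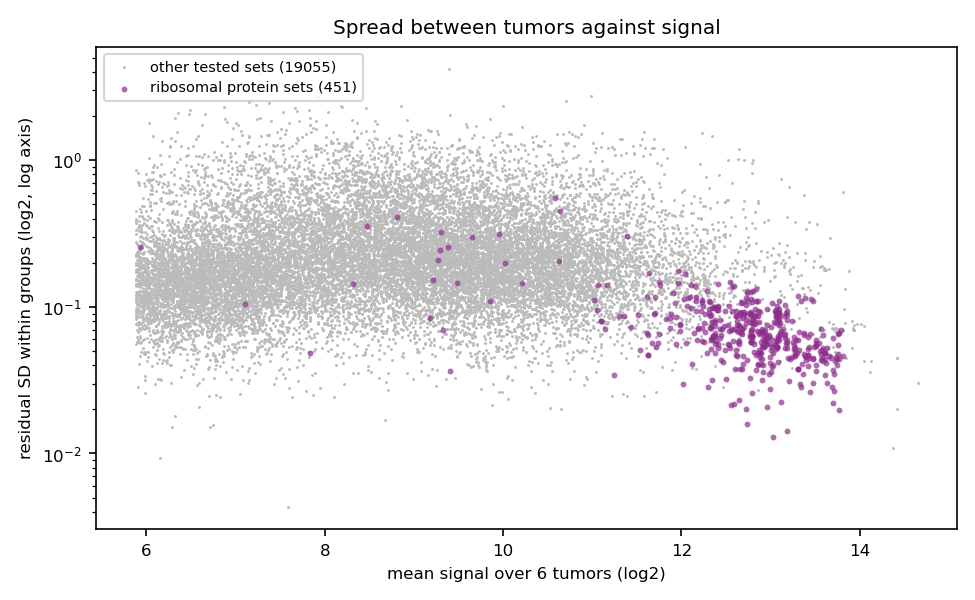
Residual SD within the genotype groups (log2, on a log axis) against the mean signal over the 6 tumors (log2) for the 451 tested ribosomal protein sets and for the other tested sets. The ribosomal protein sets gather at the right and low, with a median residual SD of 0.07 against 0.19 for all sets tested.

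No member differed between the genotypes after adjustment. With limma over all 19506 sets, 0 of 451 members had an adjusted p under 0.05, as was the case for 0.0% of all sets, and the smallest adjusted p was 0.821 among members and 0.606 among all sets. At an unadjusted p under 0.05, 0 members were higher in the double knockout tumors (1.78% of all sets were) and 1 was lower (3.82% of all sets were). The differences themselves were small: 345 members (76.5%) differed by less than 0.1 and 442 (98.0%) by less than 0.2, against 39.9% and 65.2% of all sets. For 441 members the 95% interval of the difference lay within a 1.5-fold change either way. In bulk tissue, fewer cells of a type and less RNA per cell cannot be told apart.

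Choice of the variance model mattered for the unadjusted counts. The methods named an unpaired test, which in its equal-variance form had 44 members higher and 14 lower at an unadjusted p under 0.05, and limma with a prior that follows the signal had 35 higher and 3 lower. Of these, 39 of the 44 and all 35 were sets of a single gene, Rpl21. After adjustment both had 0 members called, with smallest adjusted p of 0.857 and 0.827 for members. With arrays weighted by their quality in limma, 14 members passed an adjusted p under 0.05, 12 of them lower. The weights were 6.86 for double knockout tumor 1 and 5.39 for Apc knockout tumor 1, against 0.208 to 0.621 for the other 4 arrays, so these calls rest almost wholly on 1 tumor of each genotype. Shares of all sets called under these other fits are not given here. The member counts can thus not be read as more or fewer than in the rest of the array.

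**Figure D2:**
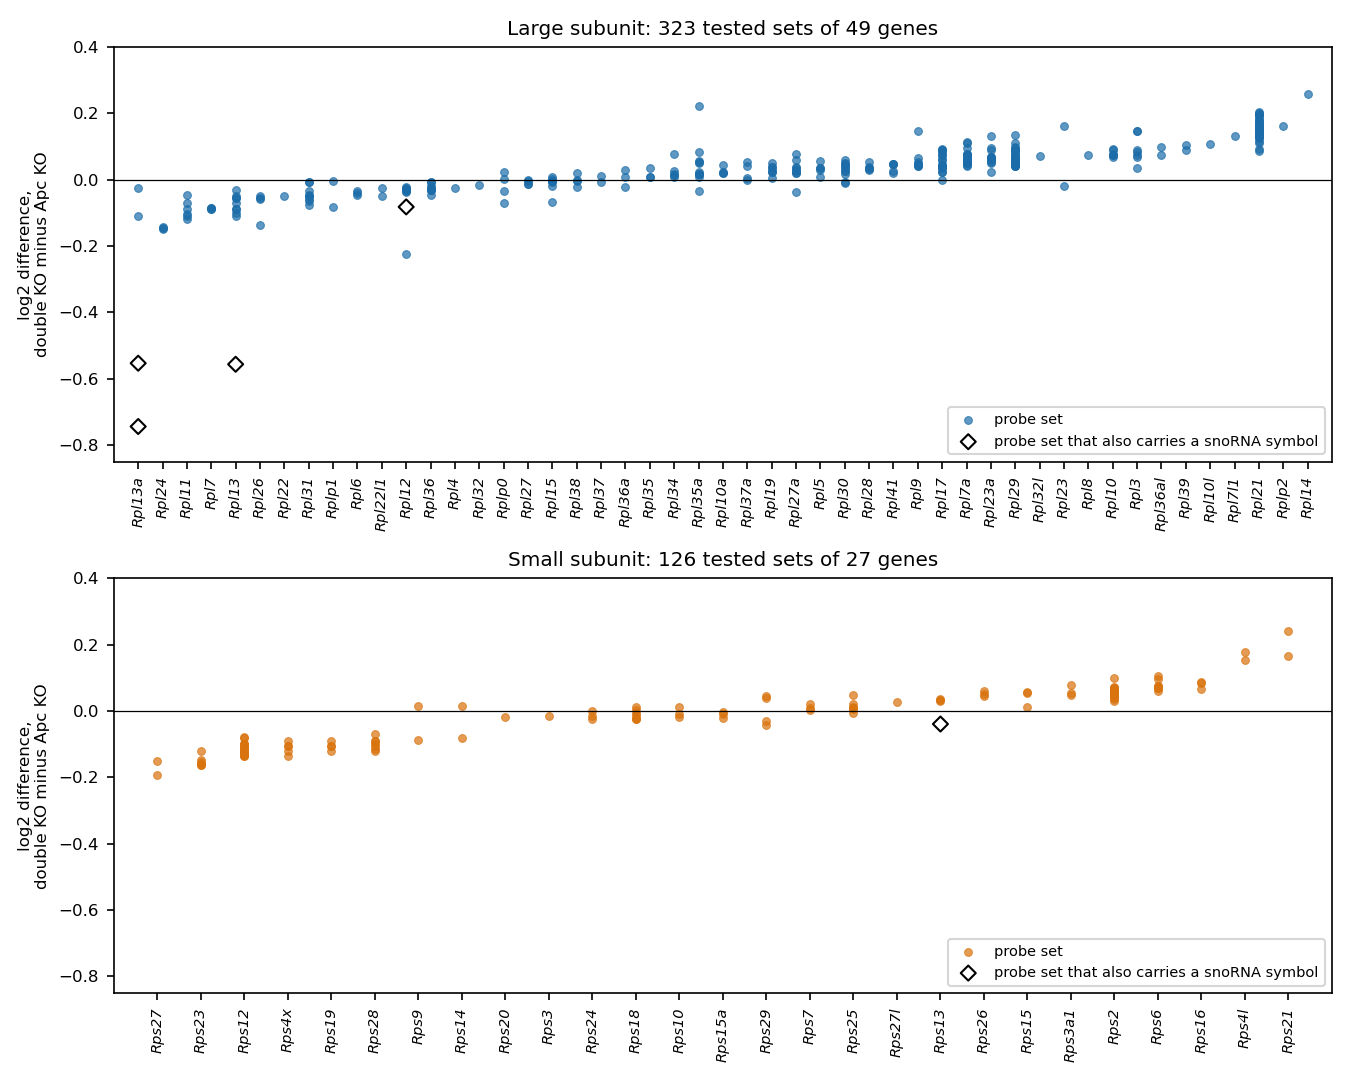
Log2 difference, double knockout minus Apc knockout (3 tumors each), of every tested set, by gene and ordered by the gene's median, for the large subunit (above) and the small subunit (below). Nearly all sets lie within 0.2 of 0, and the 3 below -0.5 are open diamonds, sets that also carry a snoRNA symbol.

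Both subunits stayed close to 0. The median difference was 0.04 for large subunit sets, with quartiles of -0.01 and 0.08, and 0.00 for small subunit sets, with quartiles of -0.10 and 0.05, while it was 0.01 over all sets tested. Of the large subunit sets 231 were positive and 92 negative, and of the small subunit sets 63 were positive and 63 negative. This split moved with the scaling: the positive sets numbered 187 and 49 after further quantile normalization, 274 and 80 after centring and 94 and 41 with array weights, in the order of large and small. Sets are not independent, since 439 of the 453 share an accession with another member, 27 have the very values of another, and Rpl21 and Rpl29 alone hold 41 and 36. Counted by gene, the large subunit had 30 positive and 19 negative medians and the small subunit 13 and 14, with medians over genes of 0.02 and -0.01.

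Medians of both subunits stayed within 0.07 of 0 in each tumor, with the same sign in 4 of the 6 tumors and opposite signs in tumor 2 of either genotype. The median deviation of the large subunit sets from their own means was -0.04, 0.02 and 0.07 in double knockout tumors 1, 2 and 3, and 0.02, -0.04 and -0.05 in the Apc knockout tumors. The small subunit read -0.03, -0.02 and 0.07, and 0.02, 0.02 and -0.02. Double knockout tumor 3 was highest on both, being the highest of the 6 tumors in 217 members (48.1%) against 14.7% of all sets. Apc knockout tumor 3 was the lowest in 149 members (33.0%, against 19.0% of all sets) and double knockout tumor 1 in 118 (26.2%, against 9.87%). Double knockout tumor 2, which stood apart in its markers, was the highest in 87 members (19.3%, against 28.5% of all sets) and the lowest in 70 (15.5%, against 28.3%).

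The balance of large over small was 0.01 ± 0.02 in the double knockout and -0.03 ± 0.03 in the Apc knockout tumors (means ± SD of the difference in median deviation, n = 3 each). Apc knockout tumor 2 had the lowest value, -0.06, and double knockout tumor 2 the highest, 0.04. With 1 set per gene the balance was -0.00 ± 0.01 and -0.01 ± 0.02, so the offset was not seen when each gene counted once. The difference in balance between genotypes was 0.04 over all sets and 0.00 with 1 set per gene, the latter smaller than the SD between tumors.

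**Figure D3:**
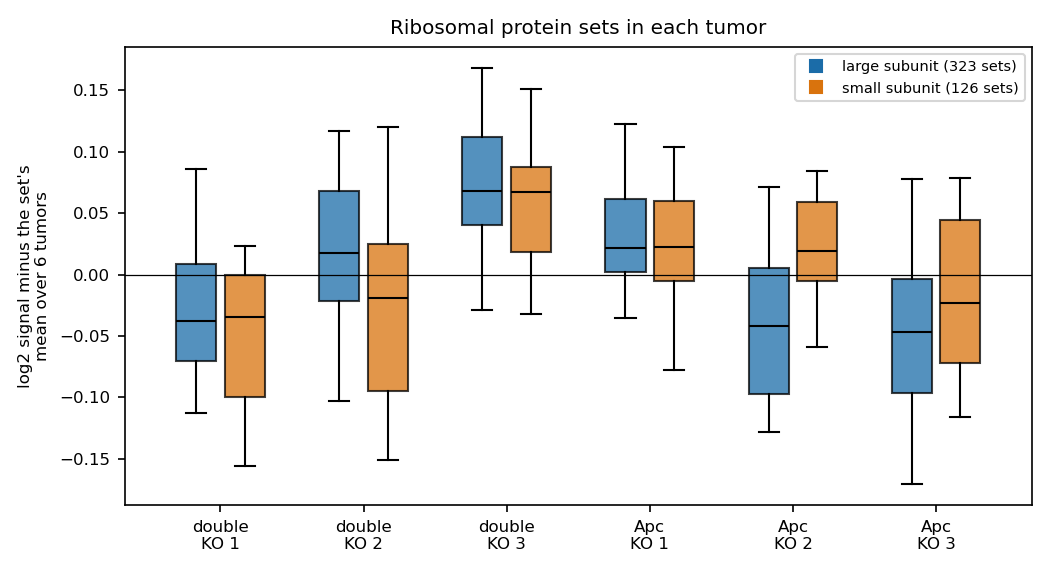
Deviation of each tested set from its mean over the 6 tumors (log2) for the large and small subunit in each tumor, as boxes from the 25th to the 75th percentile with the median as a line and whiskers from the 5th to the 95th. All medians lie between -0.05 and 0.07, and the highest pair belongs to double knockout tumor 3.

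The genotype groups did not overlap, with all 3 tumors of one beyond all 3 of the other, in 51 members that were higher in the double knockout tumors (11.3% of members, 5.25% of all sets) and 19 that were lower (4.21% of members, 6.94% of all sets). The smallest two-sided p of an exact permutation test is 0.1 with 3 tumors in each genotype, and each of these sets has it. The 51 were mostly 1 gene, since 41 of them were the Rpl21 sets, and the other 10 were 2.44% of the 410 remaining members. They came from Rps6 (4 sets), Rps2 and Rpl3 (2 each), Rpl8 and Rpl7l1. The 19 came from Rps23 (6), Rps4x (5), Rpl11 (5), Rpl13a, Rpl26 and Rpl15.

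Rpl21 encodes a protein of the large subunit. All of its 41 sets were higher in each double knockout tumor than in any Apc knockout tumor, by 0.09 to 0.20. In the median over the sets, the double knockout tumors read 13.34, 13.33 and 13.35 and the Apc knockout tumors 13.27, 13.16 and 13.13. The double knockout tumors were thus nearly equal, and the first Apc knockout tumor stood between them and the other two. One of the sets read 13.57, 13.58 and 13.61 against 13.46, 13.39 and 13.31, a difference of 0.20 (SE 0.09, limma adjusted p = 0.821). The set that also carries Camkv had the largest difference of the gene, 0.20 with an SE of 0.10, and 0.21 without double knockout tumor 2. All 41 stayed positive after further quantile normalization (0.04 to 0.19), after centring (0.12 to 0.24) and with array weights (0.03 to 0.17). The groups stayed apart in 37 of the 41 after further quantile normalization and in 38 after centring. The sets hold related sequences of 1 gene and its copies and count as 1 observation of it.

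Rps23 lies at the decoding center of the small subunit, where it takes part in the accuracy of translation. All 6 of its sets were lower in the double knockout tumors without overlap, by 0.12 to 0.16. The set with the largest difference read 12.16, 12.29 and 12.32 in the double knockout tumors and 12.43, 12.42 and 12.41 in the Apc knockout tumors. The Apc knockout tumors agreed within 0.02, and the difference was -0.16 (SE 0.09, limma adjusted p = 0.821) or -0.18 without double knockout tumor 2. All stayed negative under both scalings and array weights, as did the sets of Rps4x, Rpl11 and Rps12 described next. The counts apart were less steady: with centring they were 5 for Rps23, 3 for Rps4x and 1 for Rpl11, and with further quantile normalization 6, 4 and 5, with 8 for Rps12. All 6 sets also carry the pseudogene symbol Gm8624.

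Rps4x, the X-linked gene of a small subunit protein, had 5 sets, all lower without overlap, by 0.09 to 0.14. The brightest read 12.93, 12.97 and 13.02 against 13.07, 13.05 and 13.12, a difference of -0.11 (SE 0.09). Its paralog Rps4l went the other way in value, at 9.61, 9.65 and 9.43 against 9.22, 9.48 and 9.53, a difference of 0.15 (SE 0.13) with overlapping groups.

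**Figure D4:**
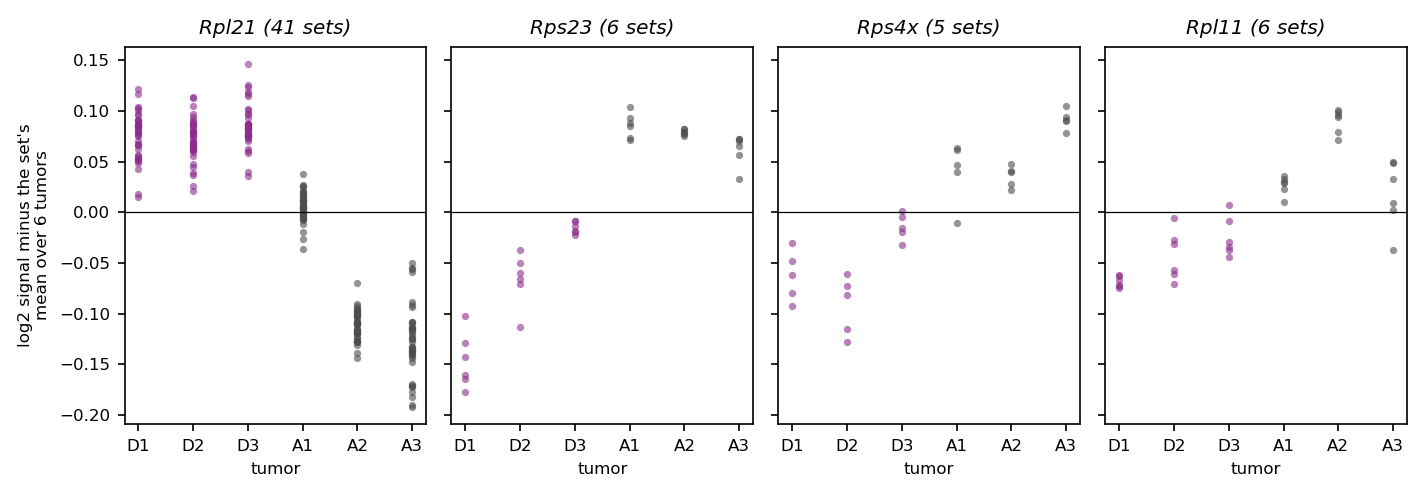
Deviation of each set of Rpl21, Rps23, Rps4x and Rpl11 from its own mean (log2) in the double knockout (D1 to D3) and Apc knockout (A1 to A3) tumors, 1 point per set. All 41 Rpl21 sets are higher in D1 to D3, all 6 Rps23 and all 5 Rps4x sets are lower, and 5 of the 6 Rpl11 sets are lower without overlap.

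Rpl5 and Rpl11 form, with the 5S ribosomal RNA, the particle that binds Mdm2 when ribosome assembly fails and so stabilizes p53. Rpl5 was among the steadiest members, at 13.02, 13.02 and 13.04 in the double knockout and 13.01, 13.03 and 13.01 in the Apc knockout tumors. Rpl11 was lower in 6 of 6 sets by 0.05 to 0.12, and without overlap in 5. Its brightest set, which also carries Brf2, read 12.73, 12.72 and 12.75 against 12.83, 12.89 and 12.85, a difference of -0.12 (SE 0.09, limma adjusted p = 0.827). Over all sets, Rpl5 differed by 0.01 to 0.06 (5 sets, median 0.03) and Rpl11 had a median of -0.10, and the difference between these partners was not tested.

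The stalk is built on Rplp0 and carries Rplp1 and Rplp2. Rplp0 read 13.85, 13.73 and 13.70 in the double knockout and 13.89, 13.82 and 13.78 in the Apc knockout tumors, a difference of -0.07 (SE 0.10), and its 4 sets ran from -0.07 to 0.02, with 2 positive and 2 negative. Rplp1 read 13.75, 13.72 and 13.84 against 13.84, 13.87 and 13.86, a difference of -0.08 (SE 0.09), with -0.00 in its other set. Rplp2 was measured by 1 set of lower signal, at 8.31, 8.35 and 8.55 against 8.37, 8.29 and 8.06, a difference of 0.16 (SE 0.13). Groups overlapped for all of them.

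Among proteins of the catalytic and tRNA-binding side of the large subunit, Rpl3 reaches toward the peptidyl transferase center and Rpl10 joins the subunit late in its maturation. The brightest set of Rpl3 differed by 0.03 (SE 0.10), and all 7 by 0.03 to 0.15. Rpl10 differed by 0.07 (SE 0.10), with 13.35, 13.39 and 13.48 against 13.40, 13.28 and 13.34. Rpl10a, of the L1 stalk, differed by 0.02 (SE 0.09). Rpl22, which also binds other RNAs, was measured at 9.35, 9.36 and 9.43 against 9.40, 9.46 and 9.43, a difference of -0.05 (SE 0.09), and its paralog Rpl22l1 differed by -0.02 (SE 0.10). None of these groups was apart, except in 2 sets of Rpl3 with identical values.

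Of the small subunit, Rps6, the substrate of S6 kinase in the TOR pathway, had 8 sets, all higher by 0.06 to 0.11, with 4 of them apart, and 2 were negative with array weights. The brightest read 13.70, 13.79 and 13.79 against 13.72, 13.66 and 13.67, where double knockout tumor 1 lay below the first Apc knockout tumor. Rps12 had 18 sets, all lower by 0.08 to 0.14, yet none apart. Its medians over sets were 12.62, 12.61 and 12.80 in the double knockout and 12.78, 12.81 and 12.80 in the Apc knockout tumors, so double knockout tumor 3 read as the Apc knockout tumors did. Rps19, mutated in Diamond-Blackfan anemia, differed by -0.12 (SE 0.10), or -0.07 without double knockout tumor 2, at 12.04, 11.83 and 11.92 against 12.02, 12.07 and 12.06. Rps3, at the entry of the messenger RNA, differed by -0.02 (SE 0.09) and Rps14, at the decoding side, by 0.02 (SE 0.10) in one set and -0.08 in the other.

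Rps27 and its p53-responsive paralog Rps27l make a pair of closely similar proteins. Rps27, in a set shared with Rps27rt, read 11.66, 12.07 and 11.88 in the double knockout and 12.06, 12.09 and 12.03 in the Apc knockout tumors, a difference of -0.19 (SE 0.13) and of -0.29 without double knockout tumor 2. Rps27l read 11.84, 12.09 and 12.01 against 12.10, 12.05 and 11.70, a difference of 0.03 (SE 0.15). Groups overlapped in both.

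At the upper end of the differences stood, beside Rpl21, single sets of lower signal. Rpl14 of the large subunit differed by 0.26 (SE 0.21), at 9.65, 9.58 and 10.12 against 9.56, 9.81 and 9.20. Rps21 of the small subunit differed by 0.24 (SE 0.16), at 9.20, 9.49 and 9.49 against 9.09, 9.42 and 8.95. A set of Rpl35a and Ino80 differed by 0.22 (SE 0.13). In each, Apc knockout tumor 3 was the lowest and the groups overlapped. The testis-known paralog Rpl10l, near the limit for testing, read 5.65 to 6.30 and 5.71 to 6.02. The widest range of a set with a single symbol was 1.37, in a set of Rpl34 that read 9.84, 10.73 and 11.21 against 10.17, 10.79 and 10.78, a difference of 0.02 (SE 0.37).

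The members with the lowest values were sets that also carry a snoRNA. Snord34/Rpl13a read 10.10, 9.74 and 10.94 in the double knockout and 10.85, 11.11 and 11.06 in the Apc knockout tumors, a difference of -0.74 (SE 0.31, limma adjusted p = 0.821). Snord32a/Rpl13a read 11.11, 10.69 and 11.54 against 11.59, 11.71 and 11.70, a difference of -0.55 (SE 0.22, limma adjusted p = 0.821), and was the 1 member past an unadjusted p under 0.05. Snord68/Rpl13 read 8.43, 8.03 and 9.15 against 9.09, 9.22 and 8.97, a difference of -0.56 (SE 0.28). In all of them, double knockout tumors 1 and 2 were low and double knockout tumor 3 read at or near the Apc knockout tumors. Without double knockout tumor 2 the differences were -0.48, -0.34 and -0.30.

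Other sets of the same genes did not share these values. The 2 other Rpl13a sets differed by -0.11 and -0.03, and the 9 other Rpl13 sets by -0.11 to -0.03. In double knockout tumor 2, Snord34/Rpl13a lay 0.90 below its mean over the tumors, and the other Rpl13a sets, in the median, 0.14 below theirs. The other 2 members with a snoRNA symbol, Rpl12/Snora65 and Snord14a/Rps13, differed by -0.08 and -0.04. Without a snoRNA symbol, members ranged from -0.23, in a low-signal set of Rpl12 (-0.09 without double knockout tumor 2), to 0.26.

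**Figure D5:**
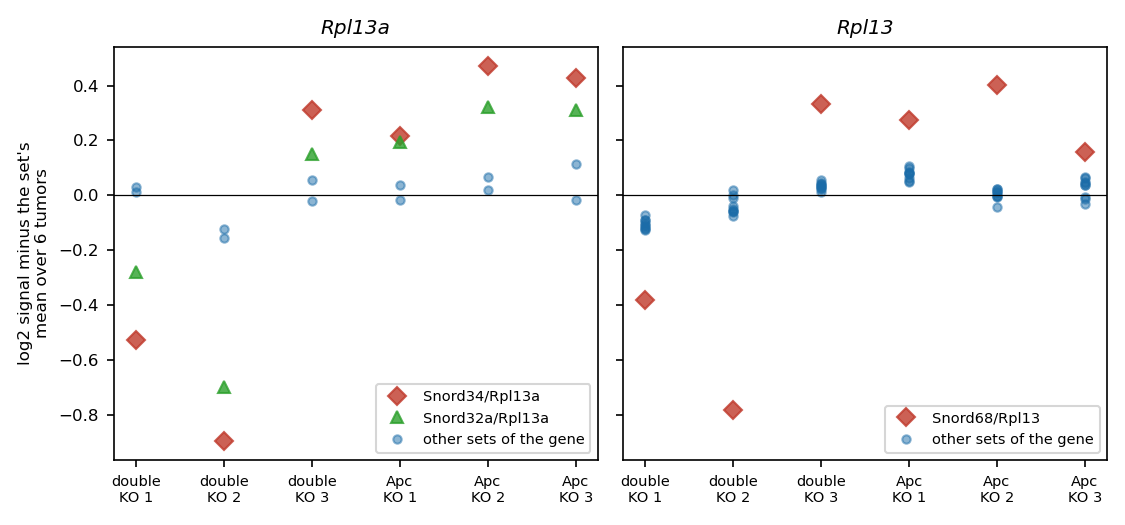
Deviation of each set of Rpl13a and Rpl13 from its own mean over the 6 tumors (log2), with the sets that also carry a snoRNA symbol as large diamonds or triangles and the other sets of the gene as circles. The snoRNA sets reach -0.90 in double knockout tumor 2, while the other sets stay within 0.2 of 0 in every tumor.

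The same held for the snoRNAs of other ribosomal protein genes. By RefSeq spans, 23 tested sets with a snoRNA symbol, the 5 members among them, lay inside 15 of the member genes, and 22 of the 23 were negative, with a median difference of -0.55. Without double knockout tumor 2, 18 were negative and the median was -0.45. The 79 member sets without a snoRNA symbol of these 15 genes had a median of -0.02, with 42 negative. Snord15a of Rps3 read 9.04, 9.39 and 9.99 in the double knockout and 10.34, 10.41 and 10.24 in the Apc knockout tumors (-0.86, SE 0.24), against -0.02 for Rps3 itself. Snora33 of Rps12 read 9.12, 8.89 and 10.31 against 10.15, 10.88 and 10.16 (-0.95, SE 0.41), against -0.14 to -0.08 for the Rps12 sets. Without double knockout tumor 2, Snord15a differed by -0.82 and Snora33 by -0.68. At an unadjusted limma p under 0.05, 6 of the 23 (26.1%) were lower, against 3.82% of all sets, and 0 were higher, against 1.78%. None of the 23 passed adjustment, and Snora3 and Snora21 have repeated sets among them. The Snora3 sets, at -0.67 and -0.66 with nearly the same values, are both among the 6 lower. The 66 snoRNA sets outside ribosomal protein genes had 61 negative and a median of -0.16, and 24 of them were Snord116 copies with a median of -0.11 (-0.27 without double knockout tumor 2) and 7 distinct rows of values. The other 42 had 39 negative and a median of -0.40 (-0.30 without that tumor). Of these 42, 9 were lower at an unadjusted limma p under 0.05, against 3.82% of all sets, and 0 of the 66 were higher. Groups were apart, with the double knockout lower, in 5 of the 23 sets. They were so in 11 of the 66, against 6.94% of all sets. In 0 of either they were apart the other way, against 5.25%. The lowest difference of any snoRNA set lay outside, in Snord118 at -1.48 (SE 0.80), or -1.23 without double knockout tumor 2. Low values were thus not particular to snoRNAs inside ribosomal protein genes. The difference between snoRNA sets inside and outside ribosomal protein genes was not tested. SnoRNAs are short and were read from total RNA of dissected frozen sections, and the part of RNA recovery in these values was not tested.

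Ribosomal proteins that the symbol rule leaves out had values like those of the members. Rpsa had 5 sets that differed by -0.08 to -0.00 and Fau 2 that differed by 0.03 and 0.05, and none was called. In the genes of the wider pathway, 0 passed adjustment in any list. Of 16 elongation and other TOP genes, 0 passed an unadjusted p under 0.05, with a median difference of 0.04, and the smallest p belonged to Nap1l1 at -0.64 (SE 0.34), or -0.31 without double knockout tumor 2. Of 52 ribosome biogenesis genes, 0 passed, with 24 positive and 28 negative and a median of -0.02. Without double knockout tumor 2, 46 were positive and the median was 0.10, and without Apc knockout tumor 3, 11 were positive and it was -0.08. Imp4, of the small subunit processome, had the smallest p there, at 0.31 (SE 0.15). Of 22 TOR pathway genes 0 passed, with a median of 0.02. Myc, kept on that list, read 11.75, 10.73 and 12.26 in the double knockout tumors. It read 11.76, 11.83 and 11.76 in the Apc knockout tumors. Its difference was -0.20 (SE 0.37), or 0.22 without double knockout tumor 2.

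Of 16 RNA polymerase I genes, 1 was higher at an unadjusted p under 0.05 and the median was -0.03. This was Znrd1, a subunit of the enzyme, at 8.84, 9.10 and 9.05 in the double knockout and 8.75, 8.61 and 8.38 in the Apc knockout tumors, a difference of 0.42 (SE 0.14). Of 11 ribosomal stress and p53 genes, 8 were negative with a median of -0.22, or -0.15 without double knockout tumor 2, and 1 was lower at an unadjusted p under 0.05. This was the p53 target Zmat3, at 8.80, 8.56 and 8.87 against 9.55, 9.30 and 9.08, a difference of -0.57 (SE 0.16, limma adjusted p = 0.821). Mdm2, the ligase that Rpl5 and Rpl11 bind, read 10.33, 9.94 and 10.32 against 10.46, 10.75 and 10.48, a difference of -0.36 (SE 0.15), or -0.24 without double knockout tumor 2, with the groups apart.

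Proteins of the mitochondrial ribosome, a separate particle, had mostly positive values. Of 77 tested genes, 71 were positive with a median difference of 0.17, where the cytosolic members had a median of 0.04 and all sets 0.01, and the difference between the particles was not tested. With array weights 43 were positive and the median was 0.02. In 6 (7.79%) the groups did not overlap and the double knockout tumors were higher, against 5.25% of all sets, and in 0 they were lower. Mrps10 read 9.86, 9.98 and 9.94 in the double knockout and 9.72, 9.69 and 9.61 in the Apc knockout tumors, a difference of 0.25 (SE 0.09, limma adjusted p = 0.821), and was the 1 gene past an unadjusted p under 0.05, with 0 past adjustment. Apc knockout tumor 3 set much of this, at a median deviation of -0.29 over the 77 genes. Without it the median difference was 0.07 with 59 positive. In that setting 6 of the 77 genes were higher and 4 lower without overlap, against 2372 and 1900 of all 19506 sets. Apc knockout tumor 3 was also the lowest for the 15 proliferation markers, at a median deviation of -0.74, and for the 10 epithelium markers, at -0.33. For proliferation, Apc knockout tumor 2 read 0.48 and double knockout tumor 3 read 0.46. In Apc knockout tumor 2 the median deviation was 0.04 for the mitochondrial and 0.25 for the biogenesis genes. It was -0.04 for the large and 0.02 for the small subunit sets. The part of proliferation and epithelial content in the mitochondrial, biogenesis and cytosolic ribosomal values was not tested.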

How the data were processed

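RNA of 6 laser-dissected colon tumors, 1 per mouse and with an RNA integrity number above a set limit, was hybridized by the authors to Affymetrix Mouse Gene 1.0 ST arrays. The deposited values are log2 signals that the authors made with RMA in GeneSpring GX (background correction, quantile normalization and a summary of each probe set), and 0 further sample columns were present. Gene symbols came from GEO's platform annotation, in which 21789 sets had 1 symbol, 1621 several and 12146 none. A set with several symbols was a member if any of them met the rule, and stays uncertain between them, as do sets that match pseudogene copies. No source used here gives a scan date or batch.

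Sets without a symbol, or with a mean below 5.88 (20th percentile over the array), were left out, and the remaining 19506 entered the test of double knockout minus Apc knockout, with limma 3.58.1 (lmFit, eBayes, two-sided, Benjamini-Hochberg over all sets tested, threshold 0.05) in R 4.3.3. The fit was checked on simulated data. Arrays have no read depth, and their number limits the precision. Subunits were compared by each set's deviation from its own mean, since levels of different probe sets cannot be set against each other. Members and gene lists were chosen with earlier results of these data known. Members named were the 6 highest and 6 lowest differences, those at an unadjusted p under 0.05 and the 4 widest ranges. A list of proteins of known role (stalk, 5S particle, catalytic side, small subunit and paralogs) was named too. Of most pathway lists, the gene or genes with the smallest p were named. No gene of the TOR list was named by its p, and Myc was named for its role. Genes named for groups that do not overlap, and snoRNAs of host genes, were chosen after their values were seen. Pathway and marker lists used 1 set per gene, the brightest with a single symbol. Some ribosomal protein genes, and snoRNAs inside them, are not reported here. Alternatives were other filters, scaling, variance models, weighting of arrays, a block for the replicate number, other choices of sets and each tumor left out.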

Additional observations from a re-analysis of the deposited data

How the results depend on the processing

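Array weights changed most: 14 members passed an adjusted p under 0.05, 12 were higher and 74 lower at an unadjusted p under 0.05, the large and small subunit medians became -0.0441 and -0.0525 and their difference 0.00841. The weights were 6.86 for double knockout tumor 1, 5.39 for Apc knockout tumor 1 and 0.208 to 0.621 for the other 4 arrays, so this is nearly 1 tumor against 1. Members lower at an unadjusted p under 0.05, 1 as reported, numbered 14 (with 44 higher) under the methods' t-test with equal variances, 3 (with 35 higher) with a trended robust prior, 2 with further quantile normalization, median centring or no filter on the mean signal, and 0 with 1-symbol sets, 1 set per gene or no snoRNA-bearing sets. With the replicate number as a block there were 2, and the samples share only a number, since same-numbered tumors correlated in their deviations at -0.203, -0.0649 and 0.0915. Sets higher without overlap, 51 as reported, were 16 with 1-symbol sets, 3 with 1 set per gene and 10 without Rpl21 and Rpl29, and sets lower, 19 as reported, were 39 after quantile normalization, 11 after centring, 6 with 1-symbol sets and 3 with 1 set per gene. The large minus small difference was -0.0005 with 1 set per gene. Leaving out each tumor in turn gave 0 to 3 members lower and 0 to 1 higher at an unadjusted p under 0.05, 54 to 144 higher and 23 to 84 lower without overlap, the last 2 ranges because fewer tumors must be apart. Leaving out the snoRNA-bearing sets or Rpl21 and Rpl29 was chosen after seeing the data. Shares of all sets called by p under these alternatives are not given here. Of the alternatives for single named sets, 399 kept direction and side of the threshold, 6 newly passed the adjusted threshold (array weights) and 28 changed sign. Under array weights the latter were Rpl10l (-0.203), Rps6 (-0.00319), Rpl10 (-0.0239), Rpl22l1 (0.00347), Rpl34 (-0.283), Ino80/Rpl35a (-0.0110), Rplp2 (-0.0120) and Rps27l (-0.206). Under quantile normalization they were Rpl10a (-0.0304), Rpl22l1 (0.00402), Rpl34 (-0.00623), Rpl5 (-0.0274), Rps27l (-0.00469) and Rpl3 (-0.0247), and under centring Rpl22l1 (0.00939) and Rps3 (0.0184). With each tumor left out in turn, differences ranged from -0.00032 to 0.0545 for Rpl10a, -0.0485 to 0.278 for Rpl10l, -0.0578 to 0.0292 for Rpl22l1, -0.0278 to 0.0608 for Rps14, -0.291 to 0.392 for Rpl34, -0.00152 to 0.0132 for Rpl5, -0.0336 to 0.00118 for Rps3 and -0.0954 to 0.102 for Rps27l. The cause was not tested. 3 arrays a group limit what could be called. Differences can be compressed near the top of the scale, and the part of this in the values was not tested.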
